A study of Homo sapiens with 172 samples.

Results

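The histone gene windows and the major histocompatibility complex (MHC) on the short arm of chromosome 6 were examined for contact with the nuclear lamina in single cells. The lamina is a meshwork of lamins that lines the inside of the nuclear envelope. The 50 members were the 100 kb bins of hg19 that lie at 6:26000001 to 26300000 and 6:27000001 to 27900000 (histone genes, 3 and 9 bins) and at 6:29600001 to 33400000 (MHC, 38 bins). The MHC was divided into class I (up to 31500000, 19 bins), class III (up to 32300000, 8 bins) and class II (11 bins). The rule names positions and uses no measured value, although it was written with earlier results of these data known. All 50 bins carried values, out of 26414 covered bins in the table, and they were set beside the other 70 bins between 24 and 36 Mb.

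All samples belonged to 1 group, haploid KBM7 cells of clone 5-5. KBM7 is a human leukaemia line. The cells carried Dam, a bacterial adenine methyltransferase, fused to LaminB1, and received 0.5 nM Shield1 for 15 h before sorting. The smallest 2% of the cells that were positive for both Fucci cell cycle reporters were sorted singly. DpnI, which cuts methylated GATC, then released the DNA that had come near the lamina. There was no second group, only 1 clone and no named separate culture, so no comparison between conditions was possible and no p-value was computed. Standard deviations are over cells and describe variation from cell to cell.

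Regions held at the lamina are mostly poor in genes and hold genes of low activity, whereas regions dense in active genes mostly lie in the nuclear interior. The replication-dependent histone genes supply the core and linker histones for newly made DNA and are transcribed in S phase at a nuclear body of their own. The MHC holds, in class I, the genes of HLA proteins that present peptides on most cells, in class II, the HLA genes of professional antigen-presenting cells together with the peptide transporter genes TAP1 and TAP2, and, in class III between them, genes of complement (C2, CFB), cytokines (TNF, LTA, LTB) and heat shock proteins. Gene order was taken from a RefSeq gene table of another build (GRCh38.p14), so single genes were not assigned to bins. In that order 34 histone genes (5 H1, 5 H2A, 9 H2B, 7 H3 and 8 H4) precede the butyrophilin genes, and 21 (1 H1, 7 H2A, 6 H2B, 3 H3 and 4 H4) follow them. The table orders 49 coding genes from HLA-F to MICB, 59 from MCCD1 to NOTCH4 and 20 from TSBP1 to HLA-DPB1.

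DamID reads only GATC sites, so the promoters of these genes were searched for them, on RefSeq sequences of GRCh38.p14 that cover 300 bases around the start of each gene, most of them before it. Of the 50 histone genes with such a sequence, 11 (22.0%) held a GATC, against 41.7% of 27305 promoters in all. The share was 10 of 32 in the first histone block and 1 of 18 in the second. For the MHC, fixed lists of 8 class I, 17 class III and 20 class II genes were searched, and not every gene of the windows. None of the 6 listed class I promoters found held a GATC, whereas 4 of 15 class III and 8 of 19 class II promoters did. The octamer ATTTGCAT, an element known from H2B promoters, was searched on both strands and stood in 12 of 15 H2B promoters (80.0%) and in 10 of the 35 other histone promoters, against 1.80% of all promoters. CCAAT, on both strands, stood in 43 of 50 histone promoters (86.0%), against 35.7% of all promoters. Among the listed MHC genes it stood in 5 of 6 class I, 4 of 15 class III and 14 of 19 class II promoters. These matches describe letters in a window and do not show that a factor binds. A promoter of 300 bases is a small part of a 100 kb bin. The GATC counts therefore do not tell how well a bin can be read. Promoters of 4 genes are printed because they show where the sites read by the assay stand: an H2B gene from each histone block with 1 GATC and the octamer, HLA-B (class I heavy chain) with no GATC, and HLA-DMA (a class II peptide-loading chain) with 2. Capitals mark GATC, ATTTGCAT and CCAAT or their reverse complements, and no matches overlap. Their places in GRCh38.p14 are chr6:26183511-26183810 (plus strand), chr6:27146809-27147108 (minus), chr6:31357130-31357429 (minus) and chr6:32953048-32953347 (minus).
H2BC6: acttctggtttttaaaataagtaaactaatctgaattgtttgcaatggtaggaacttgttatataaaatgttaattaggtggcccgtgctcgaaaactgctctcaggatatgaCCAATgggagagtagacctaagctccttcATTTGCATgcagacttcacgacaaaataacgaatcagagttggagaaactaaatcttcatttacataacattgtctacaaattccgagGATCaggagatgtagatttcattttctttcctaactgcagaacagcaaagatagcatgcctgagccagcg
H2BC12: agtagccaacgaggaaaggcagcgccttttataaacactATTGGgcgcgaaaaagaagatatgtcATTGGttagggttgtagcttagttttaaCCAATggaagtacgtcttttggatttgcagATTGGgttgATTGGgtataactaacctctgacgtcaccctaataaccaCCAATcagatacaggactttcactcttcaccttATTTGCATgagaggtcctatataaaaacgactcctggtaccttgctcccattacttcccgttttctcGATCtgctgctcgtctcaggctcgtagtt
HLA-B: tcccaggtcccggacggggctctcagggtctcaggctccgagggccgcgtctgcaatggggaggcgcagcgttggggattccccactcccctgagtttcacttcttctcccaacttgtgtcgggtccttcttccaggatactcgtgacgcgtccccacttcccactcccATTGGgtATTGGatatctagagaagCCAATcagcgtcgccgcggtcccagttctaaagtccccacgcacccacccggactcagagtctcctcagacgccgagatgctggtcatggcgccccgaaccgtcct
HLA-DMA: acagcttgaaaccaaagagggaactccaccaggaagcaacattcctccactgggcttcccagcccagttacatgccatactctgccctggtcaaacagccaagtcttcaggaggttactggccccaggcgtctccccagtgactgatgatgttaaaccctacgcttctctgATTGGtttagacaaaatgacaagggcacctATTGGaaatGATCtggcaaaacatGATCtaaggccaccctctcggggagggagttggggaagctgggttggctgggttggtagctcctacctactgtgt

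The measure was the deposited ratio of observed over expected reads. Each of the 168 columns correlated best with the column 86 numbers away, and the columns of such a pair were averaged as 1 cell, which gave 84 cells. Reads worked back from the ratios ran from 7134 to 418937 per cell in the deeper column (median 63700). A ratio of 1, the level at which a bin was called in contact, corresponded to a median of 2.68 reads over cells, and in 13 cells to less than 1 read. Contact frequency is the percent of the 84 cells with the bin in contact. Intervals are exact (Clopper-Pearson, 95%) and cover counting error only, because amplified reads can be copies of the same molecule.

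The MHC and the first histone window were rarely found at the lamina, and the second histone window less rarely. Contact in under 5% of cells was found for 43 of the 50 bins (86.0%), against 36.7% of all covered bins, 31.4% of chromosome 6, 61.4% of the other bins of 24 to 36 Mb and 81.5% of gene-dense chromosome 19. The MHC carried this count, with 37 of 38 bins (97.4%). The histone bins had 6 of 12 (50.0%), made up of 3 of 3 in the first window and 3 of 9 in the second (33.3%), which is below the share of the other bins of the 12 Mb. Contact in no cell was found for 7 of the 50 (14.0%), all in the MHC. The share was 6.19% of all covered bins, 5.07% of chromosome 6 and 20.0% of the other bins of the 12 Mb. Among the 7 were 2 class II bins that had almost no reads in any cell. None of the 50 reached 20% of cells, a level reached by 47.7% of all covered bins, 54.3% of chromosome 6 and 12 of the 70 other bins (17.1%). The highest member, 6:27300001 to 27400000 in the second histone window, was in contact in 11.9% of cells. Whether this bin holds a histone gene was not determined. Mean contact frequency was 5.85% over the 12 histone bins and 1.97% over the 38 MHC bins, against 9.52% over the other 70 bins and 35.0% over the rest of chromosome 6. Of the 560 contacts in the other 70 bins, 403 lay in the 20 bins of 24 to 26 Mb, whose mean was 24.0%. The other bins without these, 50 in number, had a mean of 3.74% ± 6.02, and 41 of them (82.0%) were under 5%.

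**Figure D1:**
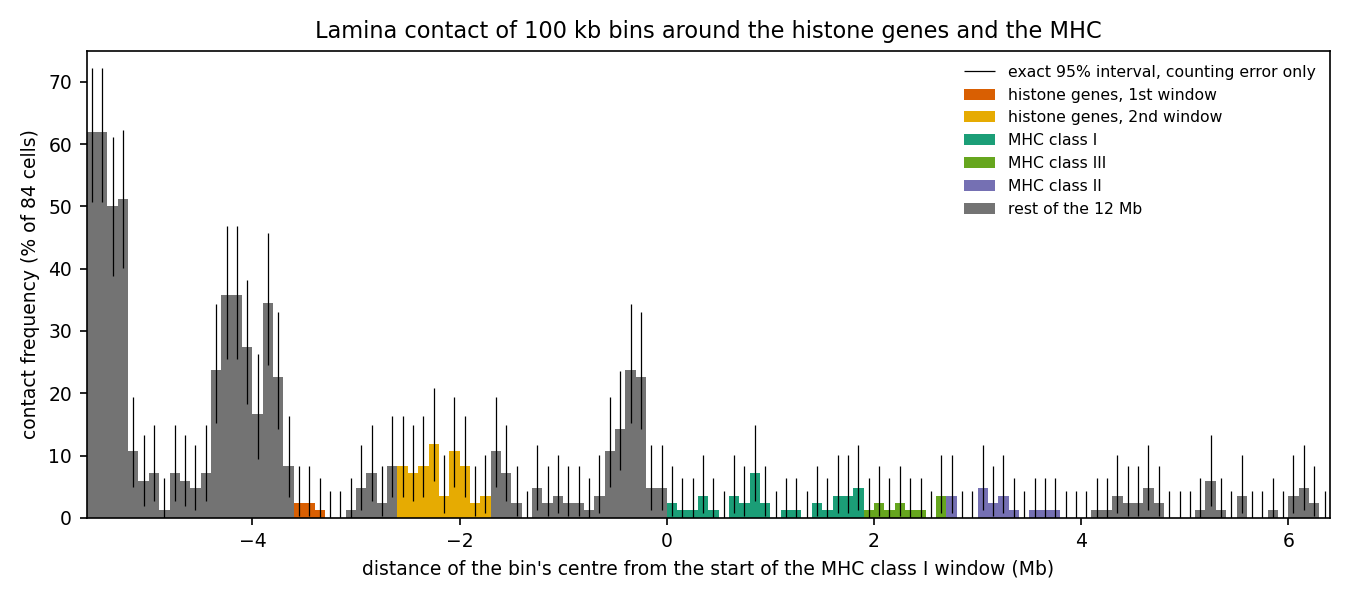
Contact frequency (percent of 84 cells) of each 100 kb bin of the 12 Mb, against the distance of its centre from the start of the MHC class I window in Mb; colours mark the windows and thin lines the exact 95% intervals. The highest bars lie before the histone genes, up to 61.9%, a smaller group up to 23.8% stands just before the MHC, and no MHC bin exceeds 7.14%.

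The first histone window lay beside a zone of frequent contact and was itself nearly free of it. The window had a mean contact frequency of 1.98% ± 9.47 (SD, n = 84 cells). Its bins were in contact in 2, 2 and 1 cells, 2.38%, 2.38% and 1.19% (highest upper bound 8.34%). The contacts came from 4 cells, with 2 bins in cell 39 and 1 bin in each of cells 9, 56 and 72. All 5 rested on 3 reads or fewer, and the 35 cells with at least 100000 reads had none. Without cell 39 the mean was 1.20%. Next to it, the 7 bins at 6:25200001 to 25900000 had a mean of 28.1% ± 32.0 and were touched somewhere in 50 cells. Those 50 included all 4 cells with contact in the histone window. Over the 84 cells, however, the share of the window and that of 24 to 26 Mb had Pearson r = -0.06 and Spearman rho = -0.004. Frequency fell from 22.6% at 6:25800001 to 25900000 to 8.33% at the next bin, and the window followed. On its other side 6:26300001 to 26400000 and the bin after it were in contact in no cell, which allows up to 3.57% by a floor of 3 cells and 4.30% by the exact interval.

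The second histone window was the member window most often at the lamina, with a mean of 7.14% ± 14.1. Contact fell on 26 cells, while 58 cells had none. Among the 26, 14 cells had a single bin in contact, 4 had 2, 5 had 3 to 4, and 3 had 5 or more of the 9 bins. The highest were cell 69 with 6 bins and cells 26 and 32 with 5 each. The bins were uneven. Frequency was 11.9% (interval 5.86 to 20.8%) at 6:27300001 to 27400000 and 10.7% at 6:27500001 to 27600000, and 3.57% at 6:27400001 to 27500000 between them. The last bins, 6:27700001 to 27900000, had a mean of 2.98%, against 8.33% for the 7 bins before them. The intervals of neighbouring bins overlap. Overlap does not decide whether neighbours measured in the same cells differ, and this was not tested. Within a cell the second window exceeded the first in 23 cells, was lower in 3 and equal in 58, with a mean difference of 5.16 ± 16.2 points.

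Contact of the second window differed between deep and shallow cells by less than the spread over cells. It was 7.94% ± 16.5 in the 35 cells with at least 100000 reads and 6.58% ± 12.2 in the 49 others. In the deeper cells its 25 contacts had a median of 13 reads, and none had 3 or fewer. Cell 69 shows such a cell: its 6 contacts had ratios from 1.47 to 2.96 on 15 to 27 reads. In cell 26, which had 12324 reads, the 5 contacts had ratios up to 6.45 on 1 to 3 reads.

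Between the histone genes and the MHC, at 6:27900001 to 29600000, lay 17 bins, and between these gene groups the gene table orders zinc finger and olfactory receptor genes, 37 coding genes from OR2B2 to MOG. Mean frequency there was 7.14% ± 12.5, and it was highest at 6:29000001 to 29400000, with a mean of 17.9% ± 30.2 and contact in 30 cells. Its highest bin, 6:29200001 to 29300000, was in contact in 20 cells (23.8%, interval 15.2 to 34.4%). The drop from 22.6% at 6:29300001 to 29400000 to 4.76% at the next bin was the sharpest fall on the way into the MHC, with 3 cells in contact at both bins. It was among the 5 largest steps between neighbours in the 12 Mb, of which the largest was from 51.2% to 10.7% after 6:24300001 to 24400000. The fall lay 0.2 Mb before the start of the class I window, so the last bins before the MHC were already low.

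Class I, the window of the peptide-presenting heavy chain genes, had a mean contact frequency of 2.26% ± 5.38. There were 36 contacts in 19 cells, out of 1596 possible. Single bins ranged from 0 to 7.14%, with a median of 2.38%. The highest, 6:30400001 to 30500000, was in contact in 6 cells (interval 2.67 to 14.9%) and was the only MHC bin in at least 5% of cells. The lowest, 6:30100001 to 30200000, was in contact in none, and its expectation was 358, above the median of 316 over the table. Expectations given here weigh bins against each other and are not the reads expected in a cell. Of the 19 class I bins, 3 were contacted in no cell.

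Class III had a mean of 1.64% ± 6.37, with 11 contacts in 8 cells. Its highest bin, 6:32200001 to 32300000 at the class II side, was in contact in 3 cells (3.57%), and 6:32100001 to 32200000 was in contact in none. Cell 54 alone supplied 4 of the 11 contacts, in the neighbouring bins of 6:31500001 to 31900000, on 1 to 3 reads each. This cell had 14065 reads, and a ratio of 1 stood for 0.599 reads in it. Without it the mean of class III was 1.05%.

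Class II had a mean of 1.73% ± 4.34, with 16 contacts in 14 cells. Its highest bin, 6:32600001 to 32700000, was in contact in 4 cells (4.76%, interval 1.31 to 11.8%), and 3 of its 11 bins in none. Among those 3 are the 2 bins at 6:32400001 to 32600000, which had almost no reads, as given below. Mean differences between the 3 classes were smaller than their spread over cells. Within cells class II minus class I was -0.524 ± 4.33 points, with class II higher in 10 cells, lower in 15 and equal in 59. Class III against class I gave -0.619 ± 7.40 points, and class II against class III 0.0947 ± 5.92 points.

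A pair of class II bins had almost no reads. Over the deeper columns of all 84 cells, 6:32500001 to 32600000, with an expectation of 208, held 1 read. The bin 6:32400001 to 32500000, with 247, held 6. In the other 36 MHC bins, reads summed over cells and divided by the expectation ran from 0.0257 to 0.156, with a median of 0.0799. These bins had 0.00481 and 0.0243. Only 6 of the 25015 covered bins with an expectation of at least 200 were as low as the first, which was the lowest such bin of chromosome 6, whereas 122 were as low as the second. The pair was picked after its values were seen, and the cause was not tested. The mean ratio of class II, 0.0652, was below those of class I, 0.0819, and class III, 0.103. Their SDs over cells, 0.114, 0.116 and 0.306, exceed these differences. The class II value includes the pair, whose mean ratios were 0.000934 and 0.00848. Neither the mean ratio nor the contact frequency of class II was computed without the pair.

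On its far side the MHC did not stand apart from the bins that follow. The 26 bins at 6:33400001 to 36000000 had a mean of 1.60% ± 3.39, and class II differed from them by 0.129 ± 3.52 points, higher in 13 cells, lower in 15 and equal in 56. Of these 26 bins, 11 were in contact in no cell. The longest stretch under 5% in the 12 Mb, 6:30500001 to 34800000, ran for 4.3 Mb through part of class I, all of class III and class II and beyond, with a mean of 1.66%. In the first 0.5 Mb outside the MHC, mean frequency was 14.0% ± 23.2 before class I and 0.476% ± 3.07 after class II.

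MHC contacts differed with depth, and the part of depth in the values was not tested. In the 49 cells with under 100000 reads, 24 cells had an MHC contact and the mean frequency was 2.63% ± 3.52. Of their 49 contacts, 47 rested on 3 reads or fewer. In the 35 deeper cells, only 3 had an MHC contact, with a mean of 1.05% ± 4.95 and 14 contacts in all. Cell 48 alone held 11 of these 14. It had a read in 97.4% of the MHC bins, whereas the other 34 deep cells had a read in 0 to 68.4% (median 17.1%), and a mean MHC ratio of 0.684, against a median of 0.0310. In those 34 cells, 3 of 1292 MHC values were in contact (0.232%), all in class I: 1 in cell 37 and 2 in cell 69. The second histone window had 6.86% and the rest of the 12 Mb 8.57% in the same 34 cells. Class III had none of 272 values in contact there and class II none of 374.

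**Figure D2:**
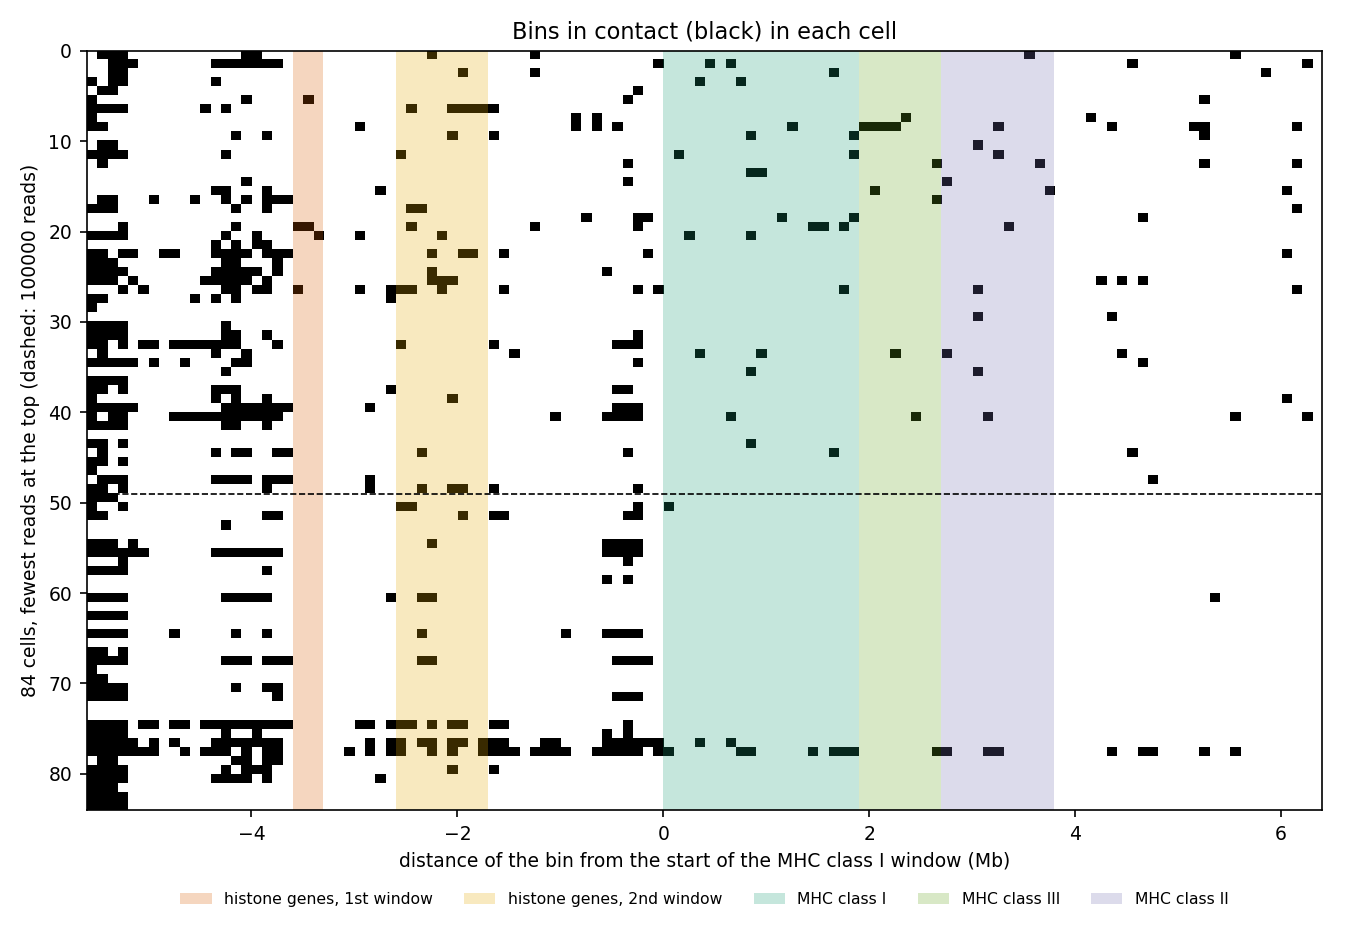
Contact calls (black) in the 12 Mb for each of the 84 cells, ordered from the fewest reads at the top to the most at the bottom, with a dashed line at 100000 reads; the horizontal axis is the distance in Mb from the start of the MHC class I window. Under the line the MHC columns are empty apart from cell 48, with 11 bins, and 3 single bins in 2 other cells, while the second histone window and the bins before the MHC hold calls above and below the line.

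Most cells had no contact in a member window. In each of the 5 windows the lowest and the median cell had 0%, and the highest cells had 66.7% (cell 39) and 66.7% (cell 69) of the first and second histone windows, 36.8% of class I (cell 48), 50.0% of class III (cell 54) and 27.3% of class II (cell 48). Over the whole MHC, 57 cells had no bin in contact, 10 had 1, 11 had 2, 4 had 3 to 4, and 2 had 5 or more. No cell had contact over a long part of the MHC: the longest run of neighbouring bins in contact that touched it was 4 bins. Over all 50 members, 41 of 84 cells had no contact.

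**Figure D3:**
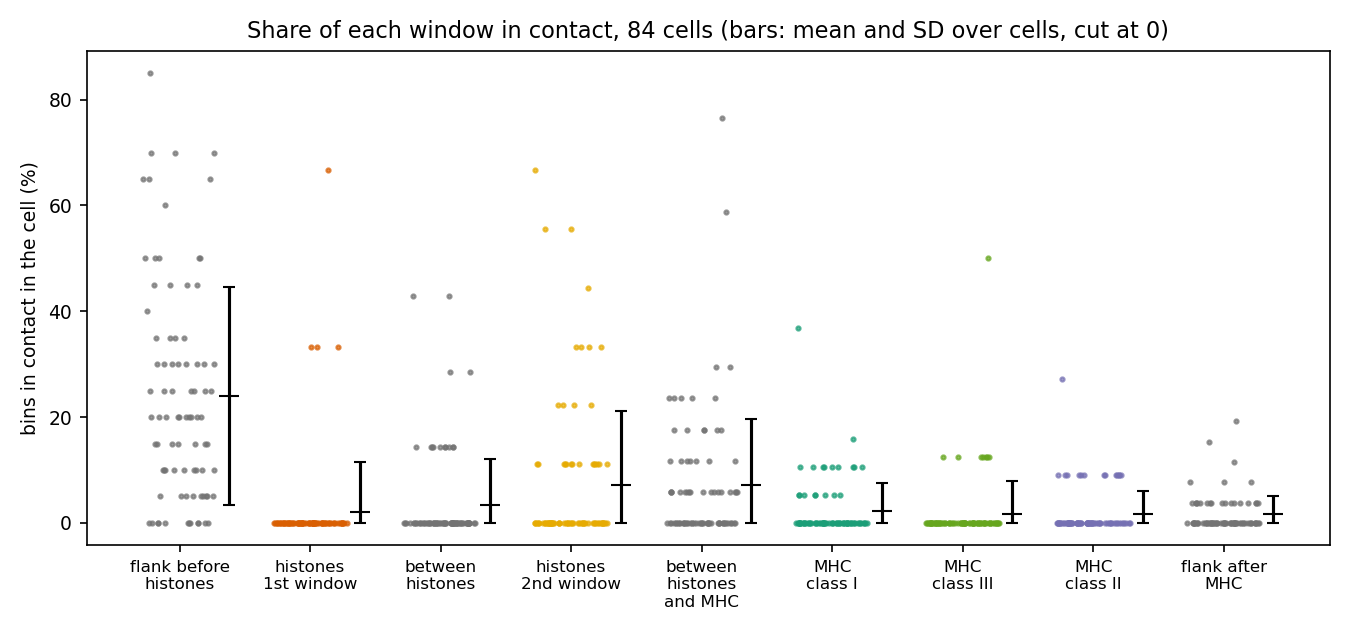
Percent of the bins of each window in contact in each of the 84 cells (points), with the mean and SD over cells as bars that end at 0. Points pile up at 0 in the member windows, where means lie between 1.64% and 7.14%, and also in the flanks between and after them, with means of 3.40%, 7.14% and 1.60%; the flank before the histone genes has a mean of 24.0%.

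Contacts in the MHC rested on few reads and few neighbours, as did those of other windows of low frequency. Of the 63 MHC contacts, 47 (74.6%) rested on 3 reads or fewer in the deeper column, against 47.5% of the 59 histone contacts, 31.8% of the 560 in the rest of the 12 Mb and 23.4% over all covered bins. Contacts with no neighbouring bin in contact made up 71.4% in the MHC, 40.7% in the histone windows, 28.6% in the rest of the 12 Mb and 14.9% over all covered bins. None of the MHC contacts and 6.78% of the histone contacts lay in runs of 5 bins or more, against 61.2% over all covered bins. In the 26 bins after the MHC the shares were 71.4% on 3 reads or fewer and 88.6% with no neighbour, with no run of 5 bins, and between the histone windows 70.0% for both. Both columns of a cell reached a ratio of 1 for 66.7% of MHC contacts, 79.7% of histone contacts and 85.6% of all contacts. How the columns of a cell relate is not given in the sources used here, so they are not taken as replicates. The expectation had a median of 311 in the members, with 202 as the lowest, and 316 over the table. Of the other bins, those at 6:26700001 to 27000000 had expectations of only 6 to 83, and their mean of 5.95% is correspondingly uncertain.

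**Figure D4:**
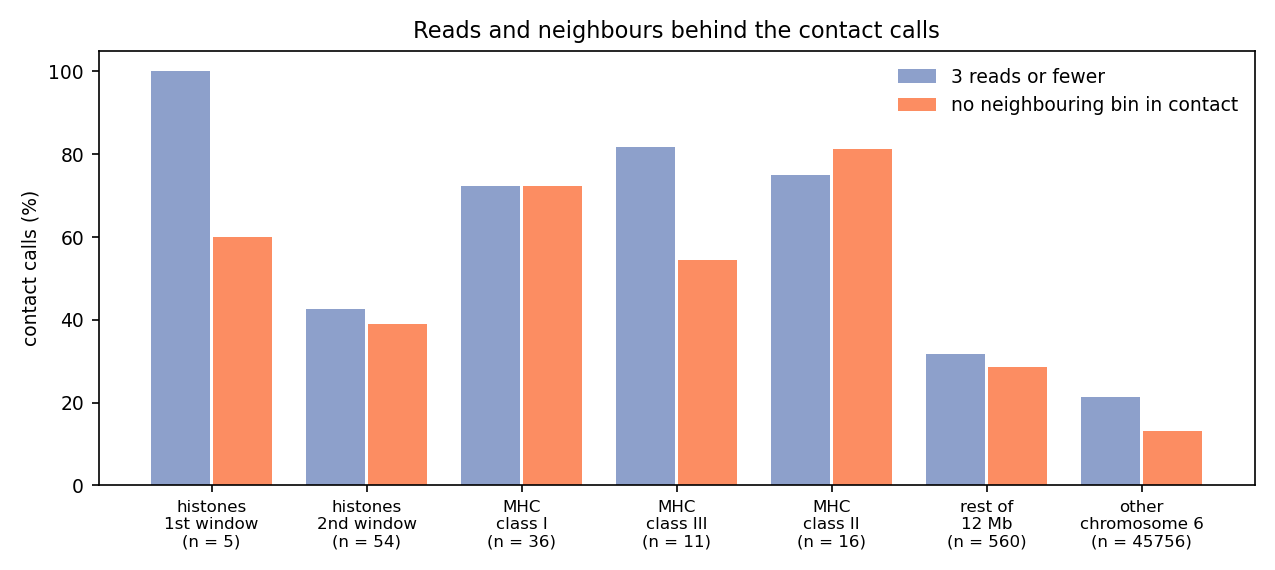
Percent of contact calls that rest on 3 reads or fewer in the deeper column (blue) and percent with no neighbouring bin in contact (orange), by region, with the number of calls under each. In the MHC classes each of these shares, taken separately, lies between 54.5 and 81.8%, against 21.4% (blue) and 13.2% (orange) in the rest of chromosome 6.

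Within the same cell, the MHC lay below the rest of the 12 Mb, whereas the histone windows did so only where the bins of 24 to 26 Mb were counted. The MHC minus the rest of the 12 Mb was -7.55 ± 8.20 points, lower in 69 cells, higher in 7 and equal in 8. The histone windows minus the same bins gave -3.67 ± 9.28 points, lower in 58 cells, higher in 17 and equal in 9. Without the bins of 24 to 26 Mb, a choice made after seeing the data, the MHC difference was -1.76 ± 4.36 points, lower in 41 cells, higher in 15 and equal in 28. The histone difference then turned to 2.12 ± 9.13 points, lower in 25 cells, higher in 25 and equal in 34. The second histone window carried this turn, with 3.4 ± 11.7 points, lower in 24 cells, higher in 26 and equal in 34. The first stayed below these bins, with -1.75 ± 11.0 points, lower in 45 cells, higher in 4 and equal in 35. All of these differences are smaller than their spread over cells, which describes how cells vary and not the error of a mean. The second histone window had the same mean as the bins between it and the MHC, 7.14%, and exceeded those between the histone windows by 3.74 ± 11.4 points. The MHC did not lie below the bins after it, with a difference of 0.371 ± 2.98 points. Against chromosome 6 outside the 12 Mb, the MHC was lower in 84 of 84 cells (-33.0 ± 11.5 points), and the histone windows in 82 of 84 (-29.1 ± 13.5 points). Histone windows exceeded the MHC by 3.88 ± 10.7 points, higher in 27 cells, lower in 16 and equal in 41. That difference is smaller than its spread over cells and the second window carried it, while the first differed from the MHC by 0.0104 ± 9.49 points. The MHC minus chromosome 19, which had 4.89% in contact, was -2.91 ± 4.92 points, lower in 70 cells, higher in 13 and equal in 1. This cell count also follows the size of the regions. In the 38 MHC bins 57 cells had no contact, against 1 cell in the 558 bins of chromosome 19. The share of bins in contact in no cell was 18.4% in the MHC and 18.8% on chromosome 19.

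Contact of the second histone window moved with the rest of the 12 Mb from cell to cell. Over the 84 cells the shares had Pearson r = 0.62 and Spearman rho = 0.51, with r = 0.47 without the 2 cells farthest from the median and 0.57 without cells 48, 54 and 56. Of the 26 cells with contact in the window, 23 (88.5%) also had contact at 6:25200001 to 25900000, where 50 cells had contact, and 14 (53.8%) at 6:29000001 to 29400000, where 30 had. For the MHC and the rest of the 12 Mb, r was 0.41 and rho 0.07. Without the 2 farthest cells r fell to 0.04, so that the coefficient of 0.41 rests on them. The bins between the histone genes and the MHC, against class I, gave r = 0.55, and 0.08 without the 2 farthest cells. All coefficients are descriptions over cells of 1 clone that also differ in depth. MHC share had rho = -0.49 with log2 reads, and the histone share -0.10.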

How the data were processed

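Contacts were measured by DamID in single cells. The table deposited by the authors holds the ratio of observed over expected reads per 100 kb bin, in hg19, per the file headers and the submitters' processing notes, which name cutadapt and Bowtie2 2.1.0. How duplicates were treated and how the expectation was built is not given in the sources used here. Of 172 labelled samples 168 have a column, and the other 4 are not analysed here. Of 30376 bins, the 26414 with no missing value and a value above 0 in some column were used.

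Whole reads and the expectation per bin were worked back from the ratios, which are whole multiples of a step per bin and a unit per column (100% of values above 0 within 0.02). The expectation came out as a whole number per bin, from 1 to 592, shared by all columns, and no read count exceeded it. It weighs bins against each other and is not the number of reads expected in a cell. The script was tested on simulated data. Columns n and n + 86 were averaged as 1 cell, and a ratio of at least 1 was a contact. An average can make a call where the deeper column has no read. Python 3.11.15, numpy 2.4.6, scipy 1.17.1 and pandas 2.3.3 were used.

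Members and gene lists were chosen with earlier results of these data known. Named bins were the highest and lowest of each window and flank, any member at 20% or more, the 5 largest steps and the longest stretches under 5% and at 20% or more. The longest at 20% or more was 6:24000001 to 24400000, with a mean of 56.2%. Cells 26, 32, 37, 39, 48, 54 and 69, and the bins chosen within flanks, were picked after their values were seen. Alternatives were other cutoffs, scaling, columns, cells and bins.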

Additional observations from a re-analysis of the deposited data

How the results depend on the processing

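Values are compared with their SD over cells, with 1.5-fold for counts and percents of cells, and, for the correlation, with the gap between odd and even cells. By that measure 201 of 208 values under 16 other settings moved less, and 28 of 30 under the 3 added after seeing the data (without cell 48, deep cells without cell 48, and the rest without the bins of 24 to 26 Mb). An SD over cells is wide, so the ranges matter more. The whole MHC ran from 0.232 to 4.64%, the second histone window from 1.59 to 16.3%, and the rest of the 12 Mb from 3.74 to 15.4%. The MHC stayed below the rest in all 19 alternatives (-10.8 to -1.76 points). Pooled histone windows did so in 18 (lowest -4.34 points) and reversed in 1, to 2.12 points without the bins of 24 to 26 Mb. Those bins supply 403 of the 560 contacts of the rest. Class II minus class I was below 0 in 17 and above in 1 (-1.52 to 0.467 points). Pearson r of the MHC share with that of the rest, 0.41, was above 0 in 18 alternatives and below in 1. It ran from -0.045 in cells 1 to 29 to 0.689 with the rest without the bins of 24 to 26 Mb. Members contacted in under 5% of cells numbered 43, and 25 at a cutoff of 0.5. The share over all covered bins was not computed at that cutoff, so the 25 cannot be set beside it. Cells with any MHC contact, 32.1% of cells, were 54.8% at a cutoff of 0.5 and 15.5% at 2, 55.2% in cells 1 to 29 and 20.0% in cells 30 to 86, 49.0% under 100000 reads, 8.57% at 100000 reads or more, and 5.88% there without cell 48. The cutoffs act by construction, and the cause of the others was not tested. Cells 1 to 29 all had under 100000 reads, so the splits by cell number and by depth overlap. A ratio of 1 was under 1 read in 13 cells, and the part of depth in these values was not tested. No paired analysis was possible because every cell belongs to the same group of samples; differences between regions of a cell are in the report.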
